A study of Mus musculus with 6 samples.

Results

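The 10 melanin and melanosome genes followed here are Tyr, Tyrp1, Dct, Pmel, Mlana, Slc45a2, Oca2, Slc24a5, Gpr143 and Mitf. They were chosen by symbol as genes of pigment cells, and all 10 were found among the 49997 genes of the table. RNA sequencing of polyadenylated RNA was done on 6 mouse retinas, 1 retina per library. The 3 libraries KO 1 to KO 3 carried the genotype label Samd7 knockout (-10A) and were taken at postnatal day 31. The 3 libraries wild type 1 to wild type 3 carried the label c57Bl6/j wt and were taken at postnatal day 36. All 6 retinas were labelled male, and no sample received a treatment. The labels do not give the strain of the knockout mice, their coat or eye pigment, or whether each retina of a group is from a different mouse, so that p-values rest on the spread among the 6 retinas alone. Genotype, age and any difference in strain or handling cannot be told apart.

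Melanin is made and stored in melanosomes, organelles related to lysosomes. Tyrosinase (Tyr) starts the pathway by oxidising tyrosine, and its relatives Dct and Tyrp1 act on later intermediates of eumelanin, while Pmel forms the fibrils on which the pigment settles. In the eye, melanin is made by the retinal pigment epithelium, by the pigmented layers of the ciliary body and iris, and by melanocytes of the choroid. The neural retina that lies against the pigment epithelium has no pigment cells of its own. Loss of several of these genes causes albinism, in which the wiring and acuity of the retina are also altered.

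Values are normalized reads: the authors scaled the read count of each gene by a size factor for the library. Undoing that scaling gave 44.2 to 53.1 M reads per KO-labelled library and 47.7 to 62.8 M per wild-type library. Samd7, the targeted gene, had 57837, 45755 and 44932 normalized reads in KO 1, KO 2 and KO 3, against 6349, 8141 and 8122 in wild type 1, 2 and 3. Its reads were thus more, not fewer, where the label says knockout, and every direction below is given for the libraries labelled Samd7 KO. The labelled tissue was checked by Glul, the glutamine synthetase of Müller glia, which had 24451 to 29405 normalized reads in the KO-labelled libraries and 38926 to 39513 in wild type (log2 fold change -0.53, limma adjusted p = 4.07e-04). The library wild type 3 stood apart in lens RNA, with 3246 normalized reads of Cryaa, a lens crystallin, against 4.81 to 21.4 in the KO-labelled libraries and 6.84 and 9.74 in the other wild-type libraries. Results without it are given below.

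In the retinas labelled Samd7 KO, RNA of 5 of the 10 pigment genes was lower. Dct, Pmel, Mlana, Oca2 and Tyr fell, 1.72-fold to 2.80-fold between group means. Tyrp1 and Mitf did not pass the test, with log2 fold changes of -0.22 and 0.17. Slc45a2 and Slc24a5 did not pass either, and Gpr143 had too few reads to be tested. Of the 10 genes, 9 reached a normalized read count of 10 in at least 3 libraries and could be tested by limma. Of these, 5 were lower and 0 higher at an adjusted p under 0.05, while 5.21% of all 20277 tested genes were lower, 6.79% higher and 12.0% changed in either direction. Scaled to total reads, 2000 of all genes were higher and 810 lower, against 1376 and 1056 here, and the same number of members, 5, was lower. The median log2 fold change was -1.05 over the 9 tested genes and 0.00 over all tested genes. Slc45a2 entered the test only through its wild-type libraries, so that the count and the median over tested genes are a description. In 5 of the 10 genes all KO-labelled libraries lay below all wild-type libraries, an order found in 15.2% of all tested genes; the reverse order, found in 15.9% of all tested genes, was seen in 0 of the 10. In bulk tissue, fewer pigment cells and less RNA per cell cannot be told apart.

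**Figure D1:**
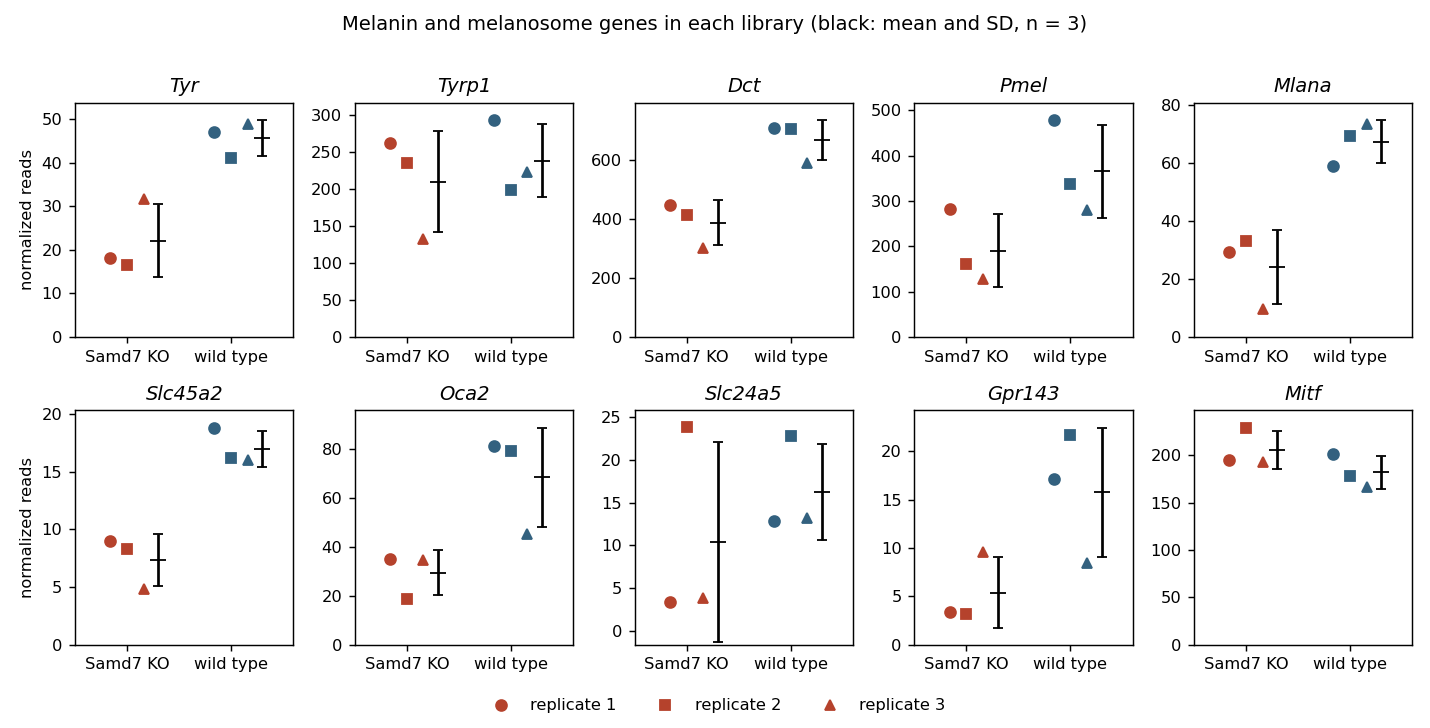
Normalized reads of the 10 genes (y axis, 1 scale per gene) in the 3 libraries labelled Samd7 KO and the 3 wild-type libraries, with a symbol for each replicate and the mean and SD in black. The groups are separate for Tyr, Dct, Mlana, Slc45a2 and Oca2, and they overlap for Tyrp1, Pmel, Slc24a5, Gpr143 and Mitf.

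Dct and Tyr, of the 3 enzymes of melanin synthesis, passed the test and Tyrp1 did not. No test compared the 3 genes with each other. Dct, dopachrome tautomerase (chromosome 14, 118012790 to 118052246, GRCm38), had 447, 413 and 301 normalized reads in KO 1, KO 2 and KO 3, against 707, 702 and 588 in wild type 1, 2 and 3. Every KO-labelled library lay below every wild-type library, and KO 3 was the lowest of all. The group means were 387 ± 76.2 in the KO-labelled libraries and 666 ± 67.2 in wild type (SD, n = 3 each), a log2 fold change of -0.80 (SE 0.15, 95% interval -1.13 to -0.46, limma adjusted p = 0.00487).

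Tyr, the enzyme that starts the pathway and is limiting for it (chromosome 7, 87424771 to 87493512), was lower per kilobase of transcript than Dct. It had 18.1, 16.6 and 31.8 normalized reads in KO 1, KO 2 and KO 3, against 47.1, 41.1 and 48.9 in wild type 1, 2 and 3. The groups did not overlap, and KO 3, the lowest library for Dct, was here the highest of those labelled KO. The means were 22.1 ± 8.37 in the KO-labelled libraries and 45.7 ± 4.08 in wild type (SD, n = 3 each), a log2 fold change of -1.07 (SE 0.30, 95% interval -1.72 to -0.42, limma adjusted p = 0.0373).

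Tyrp1, which oxidises a late intermediate in the mouse and keeps tyrosinase stable (chromosome 4, 80834123 to 80851736), did not pass the test. It had 262, 234 and 133 normalized reads in KO 1, KO 2 and KO 3, against 293, 198 and 223 in wild type 1, 2 and 3. KO 1 and KO 2 lay among the wild-type libraries, and KO 3 lay below all of them. The log2 fold change was -0.22 (SE 0.24, 95% interval -0.74 to 0.30, limma adjusted p = 0.602). Without KO 3 it was 0.077 (limma adjusted p = 0.860), so that its sign rested on that library. The interval reaches down to -0.74, so the test does not show that Tyrp1 kept its level. It overlaps the 95% interval of Dct, -1.13 to -0.46.

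The upstream sequences of the enzymes are shown because all 3 hold the M-box, the stretch around the hexamer CATGTG to which Mitf binds in pigment cell genes. They are the 250 bases before the start used for the RefSeq promoter windows of GRCm38.p6, which for Tyrp1 and Oca2 lies downstream of the outermost annotated start, and are given 5′ to 3′ on the strand of the gene, with CATGTG and its reverse complement CACATG in capitals. The Tyr stretch is chr7:87493513-87493762 on the minus strand, the Tyrp1 stretch is chr4:80833963-80834212 on the plus strand, and the Dct stretch is chr14:118052247-118052496 on the minus strand.
Tyr: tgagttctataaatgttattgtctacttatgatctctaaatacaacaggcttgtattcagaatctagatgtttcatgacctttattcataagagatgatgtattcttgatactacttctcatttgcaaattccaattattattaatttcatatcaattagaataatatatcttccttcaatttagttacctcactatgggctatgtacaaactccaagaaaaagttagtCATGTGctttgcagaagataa
Tyrp1: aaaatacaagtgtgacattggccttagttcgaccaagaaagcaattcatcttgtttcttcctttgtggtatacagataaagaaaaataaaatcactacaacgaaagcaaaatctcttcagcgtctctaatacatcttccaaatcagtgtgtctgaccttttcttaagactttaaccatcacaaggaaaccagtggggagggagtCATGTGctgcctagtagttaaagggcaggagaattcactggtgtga
Dct: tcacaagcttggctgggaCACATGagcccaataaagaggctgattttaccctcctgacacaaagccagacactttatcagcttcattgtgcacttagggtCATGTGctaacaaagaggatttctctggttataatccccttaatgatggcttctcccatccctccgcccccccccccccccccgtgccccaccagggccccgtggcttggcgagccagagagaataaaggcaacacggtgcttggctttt
In these stretches the hexamer, read in the direction of the gene, began 21 bases before the start of Tyr, 46 bases before that of Tyrp1 and 150 bases before that of Dct. Dct held another copy on the opposite strand, 232 bases before the start. In all 3 genes the hexamer sat inside the 10 letters GTCATGTGCT, the longest run of letters around it shared by the 3 windows, and so chosen from them. Of 32851 windows of 300 bases in the table, 14.2% held CATGTG on either strand and 0.186% held GTCATGTGCT on either strand.

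Windows were given for 6 of the 10 genes, 8 windows in all, 3 of them for the separate starts of Mitf. The hexamer was present in 5 of the 6 genes. Those of Oca2 (chr7:56239553-56239598, plus strand) and Slc24a5 (chr2:125068094-125068126, plus strand) lay on the strand opposite to the gene, 186 and 13 bases before the start.
Oca2: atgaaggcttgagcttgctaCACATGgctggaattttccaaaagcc
Slc24a5: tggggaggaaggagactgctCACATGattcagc
None of the 3 Mitf windows held it. The palindromic E-box CACGTG, which overlaps neither motif, was in 7.15% of all windows and in 0 of those of the 6 genes. TAATCC, a site of Otx-type factors such as the pigment epithelium regulator Otx2, was in 7.06% of all windows on either strand. Among the members it was in the windows of Tyrp1 and Dct and, for Mitf, only in that of start 2. The Tyrp1 match began 4 bases after the start. A match is a description of letters, not a site in use. The 10 letters were chosen as shared by Tyr, Tyrp1 and Dct, so they cannot separate these 3 genes by their change.

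**Figure D2:**
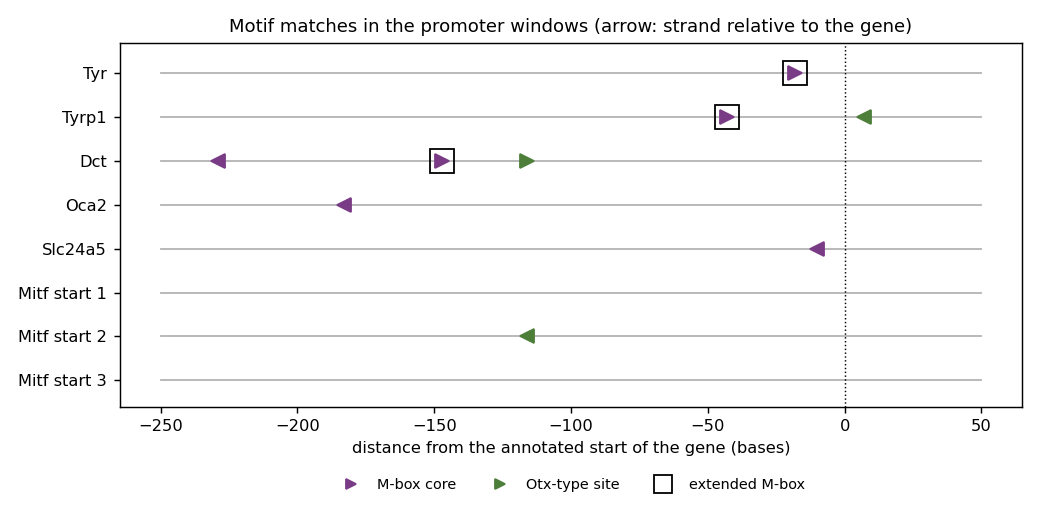
Motif matches in the promoter windows of 6 genes, as distance in bases from the annotated start (x axis), with arrows for the strand relative to the gene and boxes for the longer stretch GTCATGTGCT. The boxed matches lie in Tyr, Tyrp1 and Dct, and the windows of Mitf have no M-box core.

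For both genes followed here whose proteins build the melanosome, RNA was lower by the main test. Pmel, whose cleaved fragments form the fibrils of the young melanosome (chromosome 10, 128695888 to 128720238), had 282, 161 and 129 normalized reads in KO 1, KO 2 and KO 3, against 478, 337 and 280.5 in wild type 1, 2 and 3. The groups touched, with KO 1 just above wild type 3. The means were 191 ± 80.8 in the KO-labelled libraries and 365 ± 102 in wild type (SD, n = 3 each), a log2 fold change of -0.98 (SE 0.27, limma adjusted p = 0.0326).

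Mlana, a small membrane protein that binds Pmel and is needed for its processing (chromosome 19, 29697541 to 29708447), had 29.3, 33.2 and 9.62 normalized reads in KO 1, KO 2 and KO 3, against 59.0, 69.3 and 73.4 in wild type 1, 2 and 3. The groups were well apart, with KO 3 the lowest library. The means were 24.0 ± 12.6 in the KO-labelled libraries and 67.2 ± 7.40 in wild type (SD, n = 3 each). With a log2 fold change of -1.61 (SE 0.39, limma adjusted p = 0.0194), it had the largest fall of the tested members.

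Among the genes for transport proteins of the melanosome membrane, RNA of Oca2 was lower and the others did not pass the test. Oca2, an anion channel of the melanosome that raises its pH (chromosome 7, 56239593 to 56536518), had 35.0, 18.7 and 34.6 normalized reads in KO 1, KO 2 and KO 3, against 81.3, 79.0 and 45.2 in wild type 1, 2 and 3. The groups did not overlap, but wild type 3 lay closer to KO 1 than to the other wild-type libraries. The means were 29.4 ± 9.33 in the KO-labelled libraries and 68.5 ± 20.2 in wild type (SD, n = 3 each), a log2 fold change of -1.20 (SE 0.32, limma adjusted p = 0.0294).

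Slc45a2, a sugar and proton transporter that also acts on melanosome pH (chromosome 15, 11000721 to 11029233), had 9.03, 8.29 and 4.81 normalized reads in KO 1, KO 2 and KO 3, against 18.8, 16.2 and 16 in wild type 1, 2 and 3. All KO-labelled libraries lay below all wild-type libraries, at 8, 8 and 5 recovered reads against 22, 15 and 17. The log2 fold change of -1.14 (SE 0.39) did not pass (limma adjusted p = 0.0862). Slc24a5, a potassium-dependent sodium and calcium exchanger of the pigment cell (chromosome 2, 125068127 to 125088677), had 3.39, 23.8 and 3.85 normalized reads in KO 1, KO 2 and KO 3, against 12.8, 22.7 and 13.2 in wild type 1, 2 and 3. KO 2 was the highest of all 6 libraries while KO 1 and KO 3 were the lowest, and the log2 fold change of -1.05 (SE 0.62) did not pass (limma adjusted p = 0.314). Without KO 2 it was -1.86 (limma adjusted p = 0.0332), so that this library decided the outcome.

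Gpr143, the G protein-coupled receptor of the melanosome membrane that limits melanosome size and is mutated in ocular albinism (chromosome X, 152781921 to 152808651), was too low for the test. It had 3.39, 3.11 and 9.62 normalized reads in KO 1, KO 2 and KO 3, against 17.1, 21.6 and 8.47 in wild type 1, 2 and 3. These came from 3, 3 and 10 recovered reads in the KO-labelled libraries, against 20, 20 and 9 in wild type. KO 1 and KO 2 were the lowest libraries, while KO 3 lay above wild type 3. A limma fit without the filter on low values gave a log2 fold change of -1.45 (limma adjusted p = 0.142).

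Mitf, the transcription factor that drives most of the other 9 genes in pigment cells (chromosome 6, 97807002 to 98021360), did not fall with them. It had 195, 229 and 192 normalized reads in KO 1, KO 2 and KO 3, against 201, 179 and 167 in wild type 1, 2 and 3. The groups overlapped, and the highest library was KO 2. The means were 206 ± 20.4 in the KO-labelled libraries and 182 ± 17.5 in wild type (SD, n = 3 each), a log2 fold change of 0.17 (SE 0.15, 95% interval -0.15 to 0.50, limma adjusted p = 0.492). The interval excludes a fall as large as that of Dct. A count over the whole gene sums the transcripts from all starts of Mitf, which pigment epithelium, melanocytes and other cells use to different degrees.

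**Figure D3:**
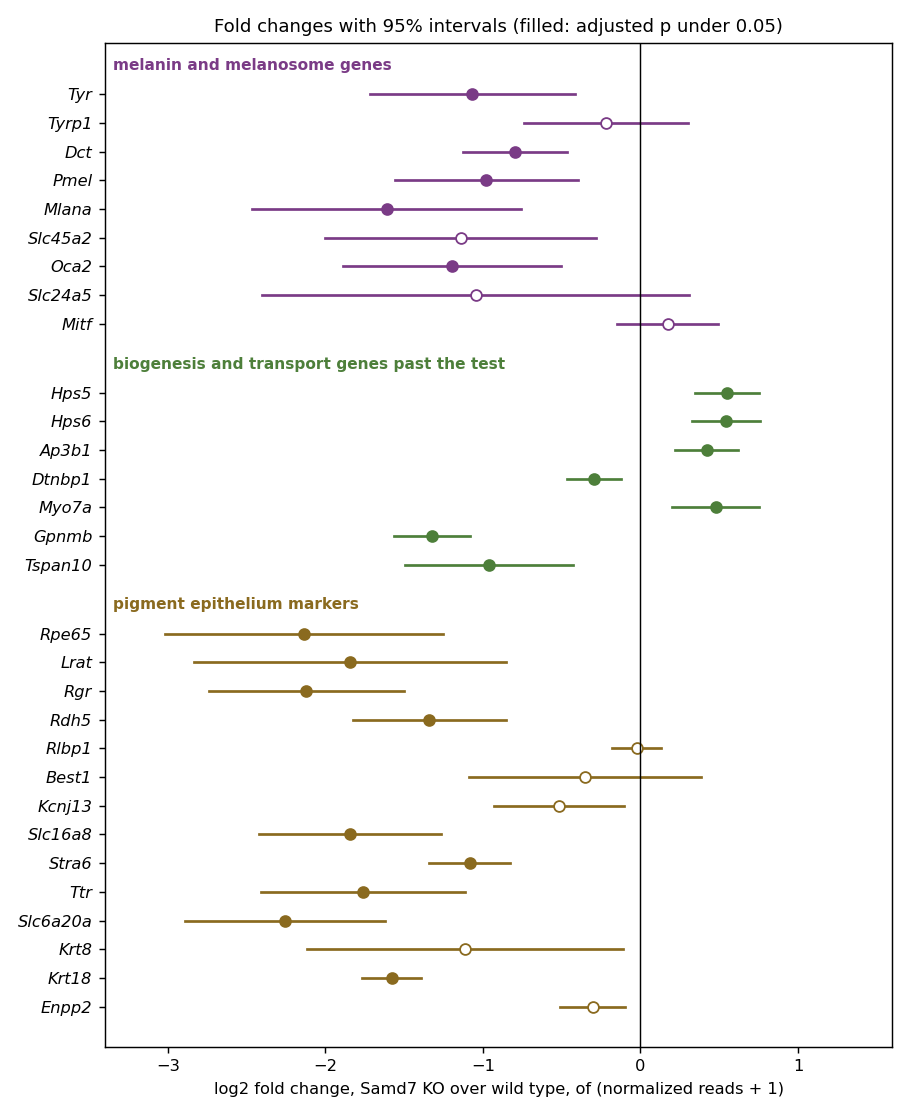
Log2 fold change of the libraries labelled Samd7 KO over wild type (x axis, log2 of normalized reads + 1) with 95% intervals from limma, for the 9 tested members, the 7 biogenesis and transport genes that passed the test and the 14 pigment epithelium markers. Filled points have an adjusted p under 0.05; Tyrp1 and Mitf lie near 0, while markers such as Rpe65 and Rgr lie further from it than any member.

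To compare levels between genes, normalized reads were divided by the length of the longest annotated transcript in kilobases. Per kilobase, Dct led with 112 normalized reads in the KO-labelled libraries and 192 in wild type, followed by Pmel with 89.5 and 171 and Tyrp1 with 77.1 and 87.5. Dct and Pmel overlapped between libraries within each group. Mlana had 26.5 normalized reads per kilobase in the KO-labelled libraries and 74.2 in wild type. Mitf had 42.1 normalized reads per kilobase in the KO-labelled libraries and 37.3 in wild type, so that Mitf lay above Mlana in the KO-labelled libraries and below it in wild type. Their libraries did not overlap in either group. Mlana reached at most 36.6 and Mitf was at least 39.4 in the KO-labelled libraries, while Mlana was at least 65.2 and Mitf at most 41.2 in wild type. That order in wild type depended on the lengths used, 906 bases for Mlana and 4881 for Mitf. Before division, Mitf was above Mlana in both groups, with means of 206 and 24.0 in the KO-labelled libraries and 182 and 67.2 in wild type. Oca2 had 8.72 and 20.3 normalized reads per kilobase in the KO-labelled libraries and in wild type. The lowest levels per kilobase were those of Slc24a5, Tyr, Gpr143 and Slc45a2, between 2.47 and 5.30 in the KO-labelled libraries and between 5.71 and 9.93 in wild type, with libraries that overlapped between neighbours. Of 18216 tested genes with a transcript length, 42.7% had a mean level per kilobase below that of Dct, 22.2% below that of Mitf and 3.07% below that of Tyr. Tyrosinase, the first enzyme, was thus at 7.57 per kilobase in wild type, where its relative Dct was at 192.

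Within the group labelled KO, the 10 genes did not vary together. In 6 of them KO 3 was the lowest of the KO-labelled libraries, in 3 it was KO 2 and in 1 it was KO 1. Relative to the mean of KO 1 and KO 2, KO 3 stood at 0.308 for Mlana, 0.535 for Tyrp1, 0.556 for Slc45a2, 0.582 for Pmel and 0.701 for Dct. By the same measure it stood at 1.83 for Tyr, 1.29 for Oca2 and 2.96 for Gpr143, although Gpr143 rests on few reads. Mitf was nearly level, at 0.907. Wild type 3 was the lowest wild-type library in 6 of the 10 genes, among them Oca2 and Gpr143, which stood at 0.564 and 0.437 of the mean of wild type 1 and wild type 2. These groupings were seen in the values and carry no test.

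Markers of the retinal pigment epithelium that play no part in melanin were lower as well. Of 14, 9 fell and 0 rose, beside the 5.21% of all tested genes that fell, and 5 did not pass. Their median log2 fold change was -1.46. Rpe65, the retinoid isomerase that defines this epithelium, had 65.5, 41.5 and 162 normalized reads in KO 1, KO 2 and KO 3, against 427, 409 and 221 in wild type 1, 2 and 3 (log2 fold change -2.14, limma adjusted p = 0.00446). Rgr, an opsin that takes part in retinoid recycling there and in Müller glia, had 428, 284 and 688 normalized reads in the KO-labelled libraries, against 2278, 2334 and 1303 in wild type (log2 fold change -2.12, limma adjusted p = 3.75e-04). Rdh5, the retinol dehydrogenase of this epithelium (log2 fold change -1.34), Slc16a8, a lactate transporter of this epithelium (log2 fold change -1.84), Slc6a20a, an amino acid transporter (-2.26), Stra6, the receptor for the retinol carrier (-1.09), and Krt18, an epithelial keratin (-1.58), also fell. Rlbp1, which Müller glia express as well, had a log2 fold change of -0.02 and did not pass. The summed level of the 14 markers was 31153 to 36197 normalized reads in the KO-labelled libraries and 40973 to 46405 in wild type. Most of it was Rlbp1, and none of the markers was at 0 in any library. Krt18 differed most in reads between the groups, with means of 2207 in the KO-labelled libraries and 6584 in wild type. It did not share the spread of Rpe65 within groups. Relative to the mean of KO 1 and KO 2, KO 3 stood at 1.06 for Krt18 and 3.02 for Rpe65. Relative to the mean of wild type 1 and 2, wild type 3 stood at 1.01 and 0.529. Krt8, the other keratin listed, had a log2 fold change of -1.11 and did not pass (limma adjusted p = 0.145). The part of these markers in the fall of the melanin genes was not tested.

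Among the KO-labelled libraries, the pigment epithelium markers had an order that some of the melanin genes shared and others did not. Of the 14, 11 had KO 3 as the highest library labelled KO and 11 had KO 2 as the lowest, while 0 had KO 3 as the lowest. Of the melanin genes, Dct, Pmel, Mlana, Tyrp1, Slc45a2 and Mitf had KO 3 as the lowest of the KO-labelled libraries. Tyr, Oca2 and Gpr143 had KO 2 as the lowest, as most markers did, and Slc24a5 had KO 1. In the wild-type group the lists were alike in 1 respect. Wild type 3 was the lowest library there for 9 of the 14 markers and for 6 of the 10 melanin genes. For 1 normalized read of Rpe65 there were 6.83, 9.95 and 1.86 of Dct in KO 1, KO 2 and KO 3, against 1.66, 1.72 and 2.66 in wild type 1, 2 and 3. For Tyrp1 the same ratio was 4.0, 5.65 and 0.821 in the KO-labelled libraries, against 0.685, 0.484 and 1.01 in wild type. For Oca2 it was 0.534, 0.450 and 0.214 in the KO-labelled libraries, against 0.190, 0.193 and 0.204 in wild type. KO 1 and KO 2 thus held more Dct and Tyrp1 per Rpe65 than every wild-type library, and KO 3 lay within the wild-type range for both. The other members did not all follow: in KO 3 the ratio was 0.0595 for Mlana, against 0.138 to 0.332 in wild type, and 1.19 for Mitf, against 0.437 to 0.753 in wild type. For Slc45a2, on few reads, it was 0.0298 in KO 3, against 0.0397 to 0.0723 in wild type.

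**Figure D4:**
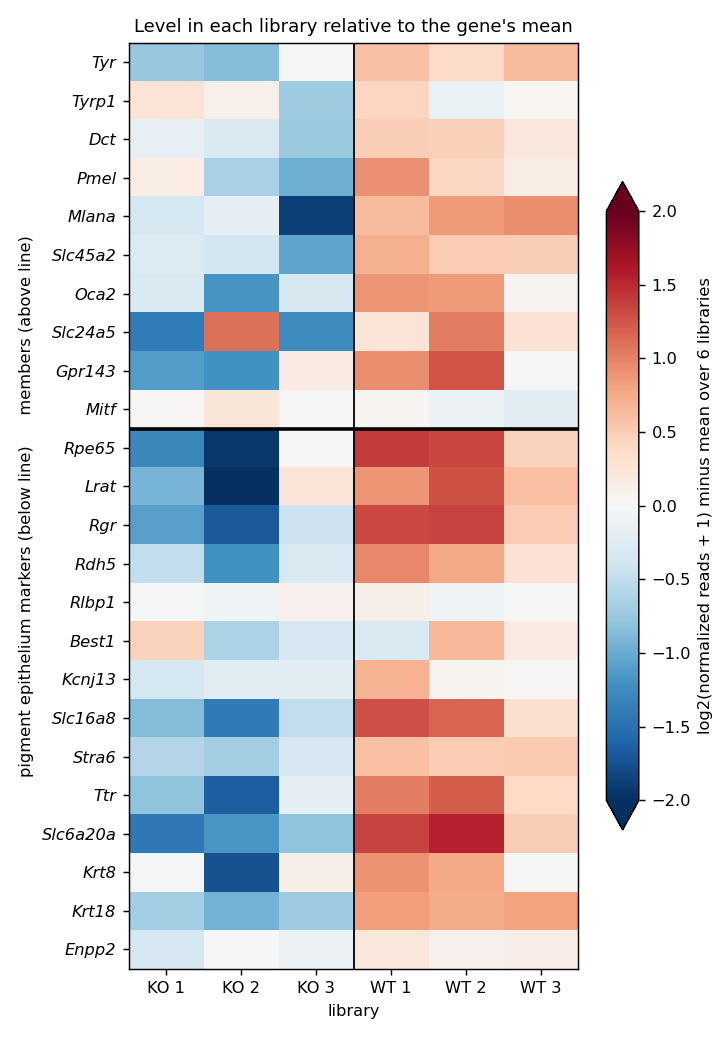
Log2(normalized reads + 1) of each gene minus its mean over the 6 libraries (colour, log2 units), for the 10 members above the line and the 14 pigment epithelium markers below it, with libraries labelled KO on the left. KO 3 is the lowest library for Mlana, Dct, Pmel and Tyrp1, and KO 2 is the lowest for Rpe65, Rgr and Ttr, and for the members Tyr and Oca2.

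Other cells that carry these genes or could come with a dissected retina were checked in the same way. Of 6 melanocyte markers, 5 were tested and 0 changed by limma, 1 of them, Sox10, having an unadjusted p under 0.05. Sox10, the factor of neural crest cells that drives Mitf in melanocytes, had 4.51, 0 and 24.1 normalized reads in KO 1, KO 2 and KO 3, against 29.9, 30.3 and 16 in wild type 1, 2 and 3 (log2 fold change -2.30, limma adjusted p = 0.121). Pax3, another defining factor of that lineage, had 1 read in KO 2 and was at 0 in the other 5 libraries. The summed level of the list was 825 to 1069 normalized reads in the KO-labelled libraries and 915 to 923 in wild type. Mc1r, Ednrb and Kit made up most of that sum, and Sox10 and Pax3 little of it. Of 6 fibroblast markers of choroid and sclera, 3 of 5 tested rose, beside the 6.79% of all tested genes that rose. They were Col1a2, Col3a1 and Pdgfra, with log2 fold changes of 0.65, 1.35 and 0.60. Col1a1 and Dcn did not pass, with log2 fold changes of -0.08 and 0.46. Summed over the 6 markers, the level was 1264 to 1340 normalized reads in the KO-labelled libraries and 731 to 944 in wild type. The sum moved in the opposite direction to the melanin genes, and most of it was Col1a2 and Pdgfra. Lum was at 0 in KO 3 and wild type 3. Of 8 lens markers, 3 were tested and 0 changed by limma. The part of these cells in the results was not tested.

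Genes that build and move melanosomes, but serve lysosome-related organelles in many cells, moved in both directions. Of 32 on the list, 31 were tested, 4 rose, 3 fell and 24 did not pass, beside the 6.79% of all tested genes that rose and the 5.21% that fell. Their median log2 fold change was 0.07. Gpnmb, a relative of Pmel that microglia and macrophages also express, had 324, 308 and 279 normalized reads in KO 1, KO 2 and KO 3, against 730, 759 and 793 in wild type 1, 2 and 3. The groups were far apart, with a log2 fold change of -1.32 (SE 0.11, limma adjusted p = 8.07e-06). Tspan10, a tetraspanin of pigment cells, had 374, 159 and 272 normalized reads in the KO-labelled libraries, against 449, 563 and 473 in wild type (log2 fold change -0.96, limma adjusted p = 0.0246). Dtnbp1, a subunit of the sorting complex BLOC-1, fell by 0.29 on the log2 scale (limma adjusted p = 0.0293). The genes that rose were Hps5 and Hps6, subunits of the complex BLOC-2 mutated in Hermansky-Pudlak syndrome, with log2 fold changes of 0.55 and 0.54, Ap3b1, a subunit of the adaptor AP-3 (0.42), and Myo7a, a myosin that moves melanosomes in the pigment epithelium and is also found in photoreceptors (0.48). Rab38 and Rab32, the small GTPases that bring Tyr and Tyrp1 to melanosomes, did not pass, with log2 fold changes of 0.26 and 0.32, both named after their values were seen.

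Relatives of Mitf and regulators of eye pigment cells were followed as a further list. Of 10, 9 were tested, 1 rose, 0 fell and 8 did not pass, a share near the 12.0% of all tested genes that changed in either direction. The gene that rose was Sox9, a factor of both pigment epithelium and Müller glia, with 2153, 2081 and 2002 normalized reads in KO 1, KO 2 and KO 3, against 1629, 1711 and 1749 in wild type 1, 2 and 3 (log2 fold change 0.29, limma adjusted p = 0.0358). Otx2, which acts with Mitf in the pigment epithelium but is also made by photoreceptors and bipolar cells, had a log2 fold change of 0.19 (limma adjusted p = 0.0838), and Tfec, a relative of Mitf in pigment epithelium, was at 0 in all 6 libraries.

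The genes whose pattern was nearest to the mean pattern of the 9 tested members were found by the root-mean-square difference of centred log2 profiles over the 6 libraries, among 13509 genes outside the members with a mean of at least 50 normalized reads. They were C2cd6, Arrdc2, Fam160a1, Grasp, Cntln, Rgcc, Gnb1-ps2, Ip6k2, Rps2-ps10 and Tuft1, with differences of 0.0844 to 0.149 log2 units, against a median of 0.499 over all genes ranked. None of them is a pigment epithelium marker or a melanosome gene of the lists. Gnb1-ps2 and Rps2-ps10 are pseudogenes, whose reads can be split with their parent genes. Among the members, Dct was nearest to the mean pattern, at 0.0728, followed by Slc45a2 at 0.172 and Pmel at 0.315, and Slc24a5 was farthest at 0.775; each member is itself a part of that mean.

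The calls differed in how far they rested on single libraries or on the test. Dct passed in all 18 other settings run, with log2 fold changes of -0.91 to -0.63. Tyr lost its call when any library but KO 3 was left out, in the order KO 1, KO 2 and wild type 1 to 3 (limma adjusted p = 0.0638, 0.105, 0.0908, 0.0821 and 0.141). It also lost it without the filter on low values (limma adjusted p = 0.0797). Pmel lost it when KO 2, KO 3, wild type 1 or wild type 2 was left out (limma adjusted p = 0.100, 0.129, 0.0995 and 0.0815) and with DESeq2 on recovered reads (adjusted p = 0.105). Oca2 lost it without KO 2, wild type 1 or wild type 2 (limma adjusted p = 0.0886, 0.0938 and 0.119) and with limma-voom and sample quality weights (adjusted p = 0.0641). Mlana lost it without wild type 2 or wild type 3 (limma adjusted p = 0.0692 and 0.0791). Slc45a2 and Slc24a5 gained a call with limma-voom and sample quality weights, with log2 fold changes of -1.41 and -1.52 (adjusted p = 0.0169 and 0.0383), and 6 members were lower there. Slc24a5 also gained one without KO 2, as given above. Counting gains and losses, the number of members lower was 4 without KO 1 or KO 3, 3 without KO 2 or wild type 3, 2 without wild type 1 and 1 without wild type 2. Removing a library also leaves fewer samples for the test. The authors' deposited table listed 4 of the 10 genes as lower at an adjusted p under 0.05, which were Dct, Pmel, Mlana and Oca2, and 0 as higher, and gave Tyr an adjusted p of 0.0640. For Pmel the authors' DESeq2 adjusted p was 0.00186, against 0.105 with DESeq2 on recovered reads, both at a log2 fold change of -0.94. The reason for that difference was not tested. Against a log2 fold change of 1, the authors' deposited table listed 0 of the 10.

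**Figure D5:**
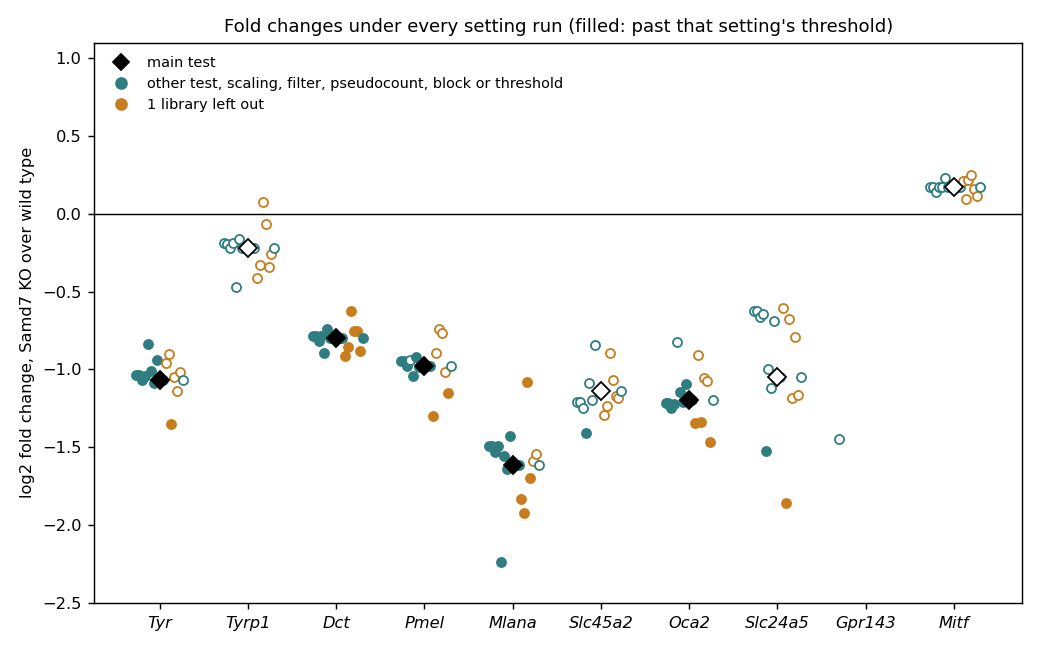
Log2 fold change of each member (y axis) under the main test (diamond) and every other setting run (circles, orange where 1 library was left out), filled where the adjusted p passed the threshold of that setting. Circles of Dct are all filled, those of Tyrp1 and Mitf are all open, and Gpr143 has a value only in the fit without a filter.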

How the data were processed

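The labels' protocols describe 1 retina per library, cDNA made with a low-input kit from polyadenylated RNA, and 15 amplification cycles; no molecular identifiers are described. Per the submitters' processing notes, the reads passed through STAR 2.7.3a, HTSeq 0.12.4, DESeq2, cutadapt 3.0, DRAGEN and SAMtools 1.9 in no stated order, with builds GRCm38 and mm10; whether counting used strand is not stated there. Each library's signal in the authors' deposited table is a gene read count divided by a size factor. The authors also deposited log2 fold changes, Wald scores and p-values per the file headers. Dividing each value by the worth of 1 read gave whole reads for 100% of 166478 values above 0, within 0.01 reads.

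Limma-trend was fitted to log2(normalized reads + 1) over the 20277 genes that reached 10 normalized reads in 3 or more libraries. The added 1 shrinks changes of low genes, yet a fitted change can still exceed that of a count test. For Slc24a5 it was -1.05, against -0.62 by edgeR with TMM factors, while for Slc45a2 it was -1.14, against -1.21. The two-sided p-values were adjusted by Benjamini-Hochberg over all genes tested, and called means an adjusted p under 0.05. Fold changes between group means are ratios of mean normalized reads. Count tests on the recovered reads (edgeR, DESeq2, limma-voom) were among the alternatives; edgeR with TMM factors called 2494 genes. The tests were tried on simulated counts with known changes. The software was DESeq2 1.42.0, edgeR 4.0.16 and limma 3.58.1 under R 4.3.3. Positions and promoter sequences are from RefSeq on GRCm38.p6, and transcript lengths from GENCODE.

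The members, gene lists and tests were chosen with earlier results of these data known. Named were all members, up to 6 called genes of each other list by adjusted p, defining markers quoted at or near 0, and the 10 genes nearest in pattern. Cryaa, Rpe65, Ttr, Rlbp1, Myo7a, Rab38, Rab32, Otx2 and Sox10 were added after their values were seen. So were Mc1r, Ednrb, Kit, Col1a1, Dcn and Krt8. 1 called gene of the retina markers is not reported here.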

Additional observations from a re-analysis of the deposited data

How the results depend on the processing

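Of the 18 other settings, 6 leave out 1 library each. The count of members that changed, 5, was 1 to 4 in those 6, 3 with a minimum of 50 normalized reads, where 5 members were tested, 3 with a replicate block, 6 with limma-voom and sample quality weights, where Slc45a2 and Slc24a5 passed and Oca2 did not, and 1 at an adjusted p under 0.01; every call in every setting was lower. All genes changed numbered 2432, 4650 with limma-voom and sample quality weights, 1189 at an adjusted p under 0.01 and 1313 to 3247 with a library left out. Biogenesis and transport genes changed numbered 7, 11 with limma-voom, 3 at an adjusted p under 0.01 and 3 to 9 with a library left out. Pigment epithelium markers changed numbered 9, and 8 to 10 with a library left out. Scaling to total reads called 2000 genes higher and 810 lower, against 1376 and 1056, and 5 members lower. The log2 fold change of Tyrp1, -0.22, was -0.41 to 0.077 with a library left out, above 0 only without KO 3. Without wild type 2 the count of members was 1. Where a threshold, a filter or fewer samples is not the reason, the cause was not tested. The labels do not say whether the replicate numbers of the titles pair the libraries. Deviations from group means correlated over genes at -0.18, -0.13 and -0.01 between same-numbered libraries. Between differently numbered libraries they correlated at -0.05 to 0.19. With 3 libraries per group the deviations of a gene sum to 0, so these values cannot decide it. The replicate block called 1624 genes, with limma adjusted p-values of 0.0606 for Tyr and 0.0530 for Oca2. Gpr143, Slc45a2 and Slc24a5 had 3 to 23 recovered reads per library, which limits their precision.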
